A study of Schmidtea mediterranea with 171 samples.

Results

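The genes vasa-1 (SmedASXL_006346), vasa-2 (SmedASXL_006546) and bruli (SmedASXL_009464) encode RNA-binding proteins of neoblasts, the adult stem cells of planarians. They were chosen by name, not by their levels, and are 3 of the 67983 transcripts counted. The transcript given for each name was also the one that correlated best with the values that the study lists under that name. All samples came from amputated heads of 30 wildtype animals of the asexual clonal strain CIW4 of *Schmidtea mediterranea*, starved for 1 week. The heads were pooled, so no value here separates one animal from another. Cells were sorted by DNA content into an X1 gate, which holds cycling neoblasts, and an X2 gate, which holds their early progeny. There were 96 single X1 cells and 72 single X2 cells, together with 2 tubes of 200 X1 cells and 1 tube of 200 X2 cells.

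Vasa proteins are ATP-dependent RNA helicases of the DEAD-box family. In many animals they are known from germ cells, where they sit in RNA granules together with PIWI proteins. In planarians such granules, called chromatoid bodies, also lie in neoblasts, and vasa genes are expressed there although an asexual animal has no mature germ line. The bruli gene encodes a Bruno-like protein of the CELF family, which binds mRNA and regulates its splicing, translation or decay, and in planarians it is known for its role in keeping neoblasts. The gene piwi-1, which encodes an Argonaute protein that works with small piRNAs, is the usual marker of neoblasts and was used to divide the cells here.

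Levels are given in CPM, the reads of a transcript per 1000000 reads assigned to any transcript in the same cell, and 5 CPM or more counted as detection. Transcript lengths were not used here, so a level is compared for the same gene between cells and not between genes. The median depth was 3.18 M assigned reads (M, 1000000) for single X1 cells, with a range of 0.813 to 20.2 M, and 2.7 M for single X2 cells, with a range of 0.55 to 4.80 M. The median X1 cell had reads of 5040 transcripts and the median X2 cell of 1894, and on average 21.2% of the reads of an X1 cell and 45.4% of those of an X2 cell were assigned to no transcript. The labels do not say from which animal or sort a cell came. Each gate was therefore treated as 1 sample, no test was made between gates, and every interval covers counting error only. In X1 cells numbered 1 to 24 and in X1 tube 1, odd numbers made up only 12.6% to 26.8% of the counts above 0, against 55.7% to 77.5% in the other 146 libraries. Most counts of those 25 libraries were thus even, for a reason not given in the sources used here. Whether this touches their CPM was not tested, and their counting intervals may be too narrow. Values without X1 cells 1 to 24 are given beside the results that they move.

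All 3 genes were detected in many more X1 cells than X2 cells. The helicase gene vasa-1 was detected in 67 of 96 X1 cells (69.8%, exact 95% interval 59.6% to 78.7%) and in 9 of 72 X2 cells (12.5%, 5.88% to 22.4%). Its paralog vasa-2 was detected in 41 X1 cells (42.7%, 32.7% to 53.2%) and in 10 X2 cells (13.9%, 6.87% to 24.1%). For bruli the counts were 65 X1 cells (67.7%, 57.4% to 76.9%) and 10 X2 cells (13.9%, 6.87% to 24.1%). The intervals of the gates did not overlap for any of the 3 genes, but how many of all transcripts had separate intervals was not computed. A share at least 25 percentage points higher in X1 cells was thus seen for 3 of 3 genes, against 10.7% of the 6814 transcripts detected in at least 10 cells. The difference was 57.3 points for vasa-1, 28.8 for vasa-2 and 53.8 for bruli, where the median transcript differed by 10.8 points. The call depended on the limit of detection for vasa-2. With 1 read or more in place of 5 CPM, the difference was 30.2 points for vasa-1, 15.6 for vasa-2, whose intervals then overlapped, and 33.3 for bruli, so 2 of 3 genes passed 25 points, against 30.2% of the same transcripts.

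X1 cells had more reads and more transcripts per cell. Cells with a gene had a higher median number of transcripts than cells without it for all 3 genes in both gates. The median depth of X1 cells was 3.20 M with vasa-1 and 2.7 M without, 3.91 M with vasa-2 and 2.8 M without, but 3.16 M with bruli and 3.20 M without. With all cells thinned to 500000 assigned reads, none being shallower, vasa-1 was detected in 71.9% of X1 cells and 12.5% of X2 cells. For vasa-2 the thinned shares were 43.8% of X1 and 16.7% of X2 cells, and for bruli 66.7% of X1 and 13.9% of X2 cells. The part of the number of transcripts per cell and of the unassigned reads was not tested.

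**Figure D1:**
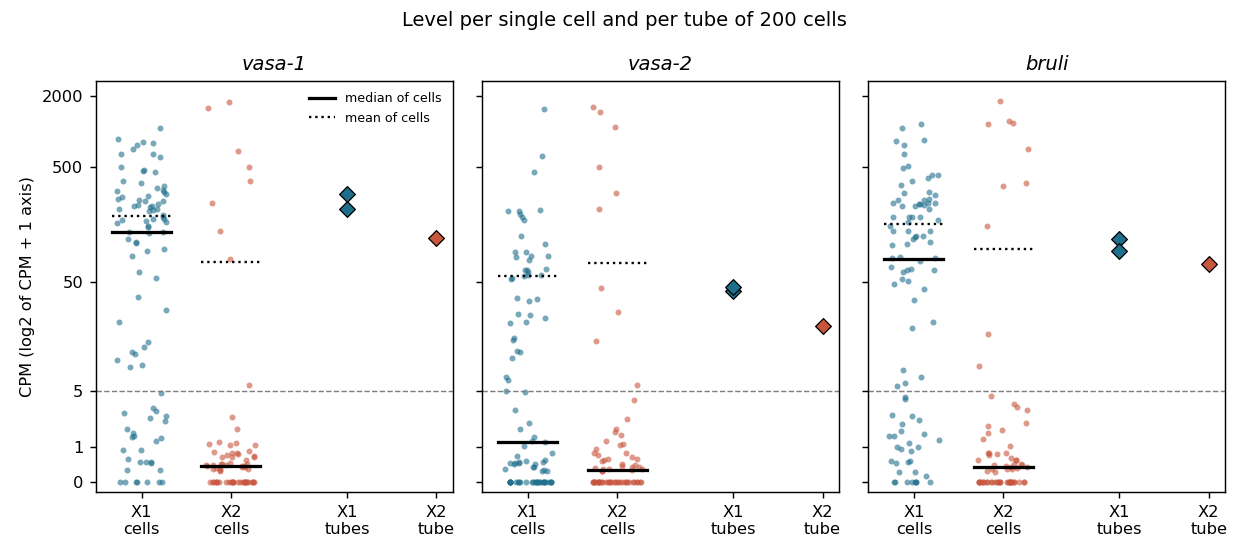
Each point is the level of vasa-1, vasa-2 or bruli in 1 single X1 cell (left, n = 96) or X2 cell (right of it, n = 72), in CPM on a log2 of CPM + 1 axis; diamonds are tubes of 200 cells, solid bars medians, dotted bars means, and the dashed line is the 5 CPM limit. Most X2 cells lie below the limit while 9 or 10 of them lie above it, the highest above every X1 cell and the lowest near the limit, and the median vasa-1 level is 136 CPM in X1 but 0.358 CPM in X2 cells.

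The level of vasa-1 across X1 cells had a lowest value of 0, a median of 136 and a highest value of 1060 CPM (mean 188, SD 231, over cells). Across X2 cells it had a lowest value of 0, a median of 0.358 and a highest value of 1798 CPM (mean 75.6, SD 298). The X1 values were spread over a wide range, whereas the X2 values were near 0 in most cells and high in a few, so X2 cells 39 and 37 lay above every X1 cell. The 9 X2 cells with vasa-1 had 1798, 1602, 683, 495, 374, 242, 141, 80.1 and 5.69 CPM, and cells 39 and 37, the first of these, held more than all other X2 cells together. Another 36 X2 cells had vasa-1 reads below 5 CPM and 27 had none.

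The median level of vasa-2 in X1 cells was 1.2 CPM, with a lowest value of 0 and a highest value of 1571 CPM (mean 56.6, SD 180). In X2 cells the median was 0.274 CPM, with a lowest value of 0 and a highest value of 1626 CPM (mean 73.7, SD 290). Fewer X1 cells than for vasa-1 were over the limit, and 1 of them, cell 3, held 28.9% of the summed level of all X1 cells, the mean being 40.6 CPM without it. The 10 X2 cells with vasa-2 had 1626, 1476, 1082, 495, 296, 215, 45.0, 27.6, 15.0 and 5.72 CPM.

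For bruli the median level in X1 cells was 79.3 CPM, with a lowest value of 0 and a highest value of 1151 CPM (mean 161, SD 230). In X2 cells the median was 0.33 CPM, with a lowest value of 0 and a highest value of 1806 CPM (mean 97.2, SD 327). As for vasa-1, the X1 cells were spread over the range and the X2 cells split into many near 0 and a few high ones. The 10 X2 cells with bruli had 1806, 1232, 1177, 1154, 709, 364, 341, 154, 17.3 and 8.75 CPM.

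Mean levels differed between gates less than shares did, and for vasa-2 the other way. The log2 ratio of mean CPM, X1 over X2 with a pseudocount of 1, was 1.3 for vasa-1, -0.38 for vasa-2 and 0.72 for bruli. Only vasa-1 was 2-fold or more higher in X1 cells, 1 of 3 genes, against 35.9% of the 6814 transcripts, whose median log2 ratio was 0.38. A 2-fold lower mean was seen for 0 of 3 genes, against 16.3% of these transcripts. Among detected cells alone, vasa-1 averaged 268 CPM in the X1 gate and 602 CPM in the X2 gate, vasa-2 132 CPM in X1 and 528 CPM in X2, and bruli 237 CPM in X1 and 696 CPM in X2. Detected X2 cells thus had the higher mean CPM of all 3 genes, but over 9 or 10 cells each. This was not particular to them. The 4 other stem cell genes of the study, piwi-1, piwi-2, piwi-3 and HP1-1, had log2 ratios over detected cells, X1 over X2, from -1.93 to -0.49. The share of all transcripts with this direction was not computed. For vasa-1, vasa-2 and bruli the direction turned on the scale of counts divided by the size factors of the authors. There detected cells averaged 1149 in X1 and 760.3 in X2 for vasa-1, 813 in X1 and 747 in X2 for vasa-2, and 1072 in X1 and 874 in X2 for bruli.

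These ratios rested on few cells and on the scale. The log2 ratio of vasa-1 was 0.723 without X2 cells 1 to 24 and 0.992 without X1 cells 73 to 96. Its 2-fold call was thus lost in both cases. That of bruli was 0.147 without X2 cells 49 to 72. Without X2 cells 25 to 48, which include the top vasa-1, vasa-2 and bruli cells of the gate, the log2 ratio was 2.98 for vasa-1, 0.07 for vasa-2 and 1.7 for bruli. With the same size factors, which averaged 0.926 in X1 cells and 2.06 in X2 cells, it was 3.06 for vasa-1, 1.7 for vasa-2 and 2.6 for bruli, so the direction of vasa-2 turned.

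The tubes of 200 cells gave a level over many cells at a time. The vasa-1 level was 217 CPM (exact Poisson 95% interval 210 to 224) and 290 CPM (280 to 301) in the X1 tubes and 121 CPM (116 to 127) in the X2 tube. That of vasa-2 was 42.5 CPM (39.5 to 45.5) and 45.2 CPM (41.3 to 49.4) in the X1 tubes and 20.6 CPM (18.3 to 23.2) in the X2 tube. For bruli it was 119 CPM (114 to 124) and 94.3 CPM (88.6 to 100.4) in the X1 tubes and 71.7 CPM (67.3 to 76.4) in the X2 tube. Both X1 tubes lay above the X2 tube for each gene, and the X1 tubes differed from each other by 1.3-fold for vasa-1. The share of all transcripts with this order of tubes was not computed. The HP1-1 level was 93.0 CPM in X1 tube 1, 212 CPM in X1 tube 2 and 94.7 CPM in the X2 tube. Its X1 tubes thus differed by more than the 2.08-fold of vasa-1 between gates. The log2 ratio of the X1 mean over the X2 tube was 1.06 for vasa-1, 1.05 for vasa-2 and 0.57 for bruli. It was 0.04 for piwi-1, 0.22 for piwi-2, -0.65 for piwi-3 and 0.68 for HP1-1. If only 1 of each 2 reads of X1 tube 1 is counted, its vasa-1 interval is 208 to 227 CPM. With a single X2 tube the difference has no replicate check. In such tubes fewer cells with a transcript and less of it per cell cannot be told apart.

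For vasa-2 the tubes and the single cells stood on opposite sides, since its mean over single X1 cells was below that over single X2 cells. The X2 tube had 0.279 times the mean of the single X2 cells, whereas for vasa-1 it had 1.6 times and for bruli 0.738 times that mean. The single X2 mean of vasa-2 without its top cell was 51.8 CPM, still above the 20.6 CPM of the tube.

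The other stem cell genes that the study lists, piwi-1, piwi-2, piwi-3 and HP1-1, were detected in more X2 cells than the 3 genes were. The marker piwi-1 was detected in 69 of 96 X1 cells and 46 of 72 X2 cells, and piwi-2, another Argonaute gene, in 95 X1 cells and 58 X2 cells. The Argonaute gene piwi-3 was detected in 72 X1 cells and 31 X2 cells, and HP1-1, which encodes a heterochromatin protein, in 68 X1 cells and 20 X2 cells. All 4 had a log2 ratio of mean CPM below 0, from -1.12 for piwi-3 to -0.32 for piwi-1. Among these 7 genes, only vasa-1 and bruli had a higher mean in X1 cells on the CPM scale, whereas after division by the size factors described above all 7 did.

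Across all X1 cells, the 3 genes went with piwi-1, although bruli did not among X1 cells 1 to 24. Cells were divided at a piwi-1 level of 5 CPM, which gave 69 piwi-1-high and 27 piwi-1-low X1 cells, with 6 cells lying between 2.5 and 10 CPM. In this division vasa-1 was detected in 60 of 69 piwi-1-high cells (87.0%, 76.7% to 93.9%) and in 7 of 27 piwi-1-low cells (25.9%, 11.1% to 46.3%). For vasa-2 the counts were 39 piwi-1-high cells (56.5%, 44.0% to 68.4%) and 2 piwi-1-low cells (7.41%, 0.91% to 24.3%). For bruli they were 57 piwi-1-high cells (82.6%, 71.6% to 90.7%) and 8 piwi-1-low cells (29.6%, 13.8% to 50.2%). The intervals of the classes did not overlap for any gene, but how many of all transcripts had separate intervals was not computed. A share at least 25 points higher in piwi-1-high cells was seen for 3 of 3 genes, against 7.71% of the 5548 transcripts detected in at least 10 X1 cells. As the classes were drawn from measured levels in the same cells, these differences are a description. With 1 read or more in place of 5 CPM the difference was 25.9 points for vasa-1, 19.8 for vasa-2 and 9.02 for bruli, so 1 of 3 genes passed 25 points, against 12.1% of transcripts, and the intervals of vasa-2 and bruli overlapped. With 5 or more counts after division by size factors, bruli was found in 89.9% of piwi-1-high and 55.6% of piwi-1-low cells. At that limit 3 of 3 genes passed, against 11% of transcripts. Among X1 cells 1 to 24 alone and at 5 CPM, bruli was detected in 11 of 18 piwi-1-high cells (61.1%) and 4 of 6 piwi-1-low cells (66.7%).

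The median vasa-1 level was 190 CPM in piwi-1-high X1 cells and 0.565 CPM in piwi-1-low ones, and the log2 ratio of means was 3.29. For vasa-2 the medians were 12.1 CPM in piwi-1-high and 0.252 CPM in piwi-1-low cells, with a log2 ratio of 2.7. For bruli they were 118 CPM in piwi-1-high and 1.3 CPM in piwi-1-low cells, with a log2 ratio of 0.85. Hence 2 of 3 genes, the vasa pair, were 2-fold or more higher in piwi-1-high cells, against 24.9% of transcripts. The ratio of vasa-2 was 3.81 without the top cell of each class, 2.06 without X1 cells 1 to 24 and 1.9 with the limit of piwi-1 set at 1 CPM. The ratio of bruli was 2.3 without X1 cells 1 to 24 and -0.18 with the limit of piwi-1 set at 1 CPM.

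Along the level of piwi-1 in X1 cells, detection of vasa-1 went from 7 of 27 cells below 5 CPM to 4 of 6 cells at 5 to 50 CPM, 31 of 36 at 50 to 500 CPM and 25 of 27 at 500 CPM or more. In the same steps vasa-2 was detected in 2, 1, 21 and 17 cells and bruli in 8, 3, 32 and 22 cells. The share of each gene was close between the upper steps, whose intervals overlapped, and the step from 5 to 50 CPM held too few cells to place.

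**Figure D2:**
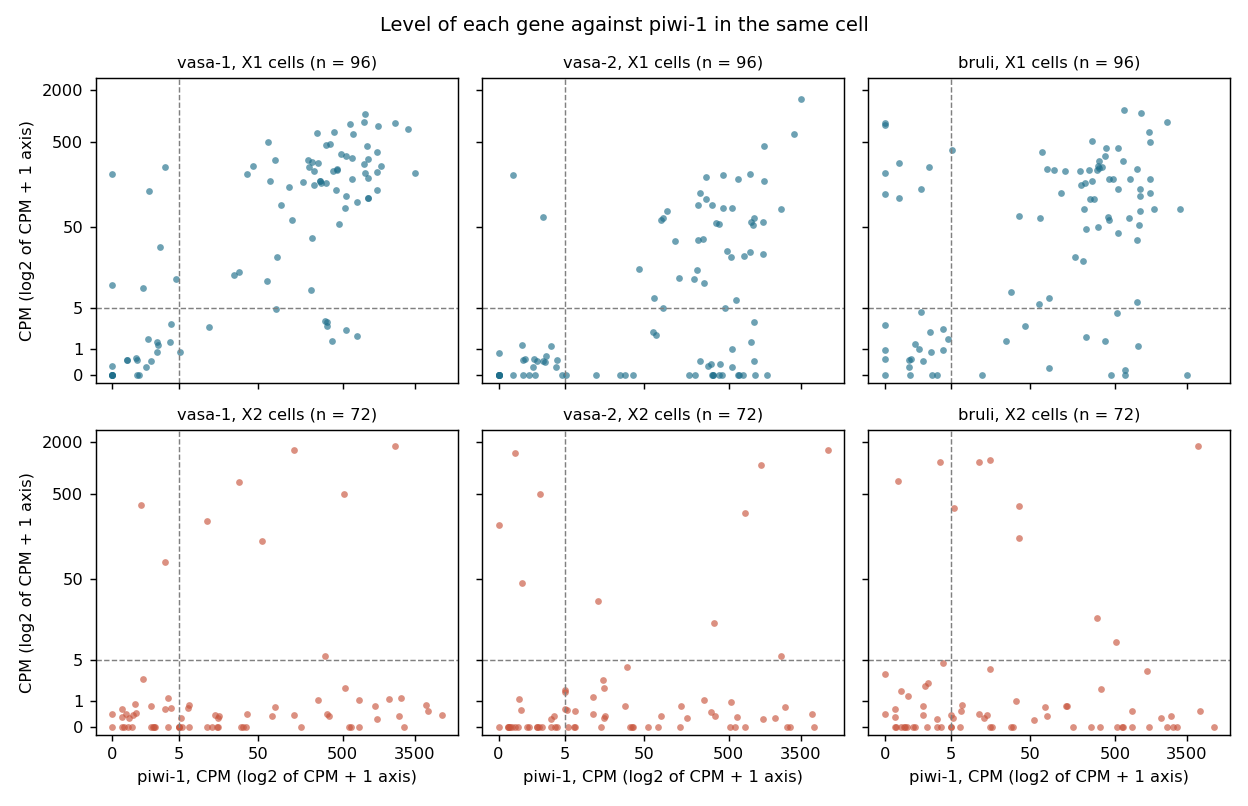
Level of vasa-1, vasa-2 and bruli (vertical, CPM) against piwi-1 (horizontal, CPM) in the same single cell, X1 cells above (n = 96) and X2 cells below (n = 72), on log2 of CPM + 1 axes; dashed lines mark 5 CPM. In X1 cells 60 of 69 cells to the right of the piwi-1 limit are over the vasa-1 limit and 7 of 27 to its left, whereas in X2 cells the few cells with a gene are scattered along the piwi-1 axis.

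Among X2 cells, which fell into 46 piwi-1-high and 26 piwi-1-low cells with 13 of them between 2.5 and 10 CPM, no such relation with piwi-1 was seen. The gene vasa-1 was detected in 7 of 46 piwi-1-high cells (15.2%, 6.34% to 28.9%) and in 2 of 26 piwi-1-low cells (7.69%, 0.946% to 25.1%). For vasa-2 the counts were 6 piwi-1-high cells (13.0%, 4.94% to 26.3%) and 4 piwi-1-low cells (15.4%, 4.36% to 34.9%). For bruli they were 8 piwi-1-high cells (17.4%, 7.82% to 31.4%) and 2 piwi-1-low cells (7.69%, 0.946% to 25.1%). All of these intervals overlapped, so differences of this size were not detectable with these cells. Only vasa-2 and bruli reached 10 detected cells here, and 0 of these 2 were 2-fold higher in piwi-1-high cells, against 29.5% of 660 transcripts. The log2 ratios of means were 2.5 for vasa-1, -0.36 for vasa-2 and 0.59 for bruli, and each rested on 10 or fewer cells with the gene. X2 cells with a piwi-1 level of 500 CPM or more numbered 16, and vasa-1 was detected in 2 of them, vasa-2 in 4 and bruli in 2.

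The gates could also be set against each other among piwi-1-high cells alone. There vasa-1 was detected in 60 of 69 X1 cells and 7 of 46 X2 cells, a difference of 71.7 points, which was 43.5 points for vasa-2 and 65.2 points for bruli. A difference of at least 25 points was seen for 3 of 3 genes, against 19.5% of 4772 transcripts, and the median transcript differed by 14.5 points. The difference between gates in the share with each gene was thus also seen among cells with piwi-1, although with 1 read or more it was 10.1 points for vasa-2, with overlapping intervals. With 1 read or more, 2 of 3 genes passed 25 points, against 43.9% of transcripts. The log2 ratio of means among piwi-1-high cells was 1.2 for vasa-1, 0.16 for vasa-2 and 0.73 for bruli, so 1 of 3 genes was 2-fold higher, against 35.3% of transcripts. Ordered by its share, each gene stood highest in piwi-1-high X1 cells. The 3 other classes had overlapping intervals for each gene and could not be ordered.

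Single X1 cells often held several of the 3 genes. All 3 were detected in 33 of 96 X1 cells (34.4%, 25.0% to 44.8%) and in 0 of 72 X2 cells, which allows a share of up to 4.17% (here and for other counts of 0, the limit is taken as 3 cells of the total). Of the X1 cells, 27 had 2 of the genes, 20 had 1 and 16 had none, while of the X2 cells 4 had 2, 21 had 1 and 47 had none. The 33 X1 cells with all 3 genes were all piwi-1-high, and 14 of the 16 X1 cells with none were piwi-1-low. Thinned to 500000 reads, all 3 genes were detected in 35.4% of X1 cells and 1.4% of X2 cells.

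**Figure D3:**
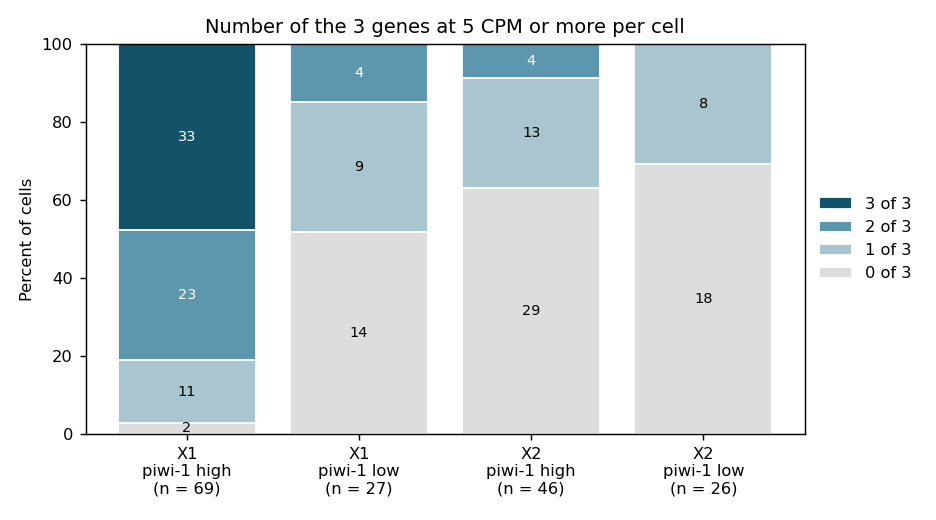
Percent of cells (vertical) with 0, 1, 2 or 3 of the genes vasa-1, vasa-2 and bruli at 5 CPM or more, in piwi-1-high and piwi-1-low cells of each gate; numbers in the bars are cells. All 3 genes together were seen in 33 of 69 piwi-1-high X1 cells and in none of the other 3 classes, and 47 of 72 X2 cells had no gene.

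The X1 cells with all 3 genes also held more of the other stem cell genes. Of these 33 cells, 32 had piwi-3 and 32 had HP1-1, against 6 and 3 of the 16 X1 cells with none of the 3 genes. The median level of HP1-1 was 95.1 CPM in X1 cells with all 3 genes, 35.3 CPM in those with 1 or 2 and 0.192 CPM in those with none. Depth went the same way, with a median of 3.82, 2.94 and 2.4 M assigned reads and of 5862, 4929 and 3897 transcripts per cell, and its part in these counts was not tested.

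The 2 vasa genes did not always occur together in a cell. Of the 41 X1 cells with vasa-2, 38 also had vasa-1, but of the 67 X1 cells with vasa-1, 29 had vasa-2 below 5 CPM and 16 of these had no vasa-2 read. The highest vasa-1 level in a cell without any vasa-2 read was 609 CPM, or 1950 reads, in X1 and 1602 CPM, or 4169 reads, in X2. In X2 cells 9 of the 10 cells with vasa-2 lacked vasa-1, and the vasa-2 cell with no vasa-1 read and the highest level had 495 CPM, or 1415 reads. Many reads of vasa-1 thus occurred without any vasa-2 read in both gates. The reverse was seen in X2 cells only, since 0 of the 41 X1 cells with vasa-2 lacked a vasa-1 read. The X1 cell at 609 CPM, cell 17, was among X1 cells 1 to 24, whose counts were mostly even. In that range 13 cells had no vasa-2 read and 0 had vasa-2 reads below 5 CPM. Whether the even counts bear on this was not tested. Whether reads were shared between the pair was not tested by sequence.

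The bruli gene met vasa-1 in 53 of 96 X1 cells and vasa-2 in 35, while in X2 cells it met vasa-1 in 3 and vasa-2 in 0. The 27 X1 cells with exactly 2 of the genes were mostly those with vasa-1 and bruli, 20 cells, against 5 with vasa-1 and vasa-2 and 2 with vasa-2 and bruli. If the 3 genes occurred independently at their shares, these pairs alone would be held by 26.0, 9.24 and 8.39 cells, in the same order. The 20 cells thus did not exceed that number. All 3 genes together and none of them were more frequent than under independence. All 3 were held by 33 X1 cells against 19.4, and none by 16 cells against 5.37. Among piwi-1-high X1 cells alone, the 33 cells with all 3 genes stood against 28.0. The cell with the highest bruli level in X1, cell 11, had 1151 CPM of bruli, 327 CPM of vasa-1 and no vasa-2 read. X1 cell 35, the third by bruli, had 847 CPM of bruli, 815 CPM of vasa-1, 82.5 CPM of vasa-2 and 2067 CPM of piwi-1.

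Some X1 cells held one of the genes with little or no piwi-1. There were 13 of them among the 27 piwi-1-low X1 cells. With bruli there were 8, at 112 to 822 CPM, and cells 4, 13, 16 and 24 of these had no piwi-1 read. All 6 piwi-1-low cells among X1 cells 1 to 24, whose counts were mostly even, had no piwi-1 read. In the later ranges only 2 X1 cells, both numbered 49 to 72, had none. Whether the even counts bear on this was not tested. X1 cell 24 had 822 CPM of bruli and 209 CPM of vasa-1, X1 cell 13 had 771 CPM of bruli without a vasa-1 or vasa-2 read, and X1 cell 29 had 284 CPM of bruli and 206 CPM of vasa-2. Of the 8 cells, 4 were numbered 1 to 24 and 4 were numbered 25 to 48, and none of the 11 piwi-1-low cells numbered 49 to 96 had bruli. The count of piwi-1-low cells with bruli without X1 cells 1 to 24 was 4 of 21 (19.0%).

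Genes of neurons were also measured in the piwi-1 classes of X1 cells. The list of 3 neural markers holds pc2, a prohormone convertase gene of neurons, synapsin, a synaptic vesicle gene, and chat, the acetylcholine synthesis gene. The share with pc2 was 30.4% of piwi-1-high cells (19.9% to 42.7%) and 59.3% of piwi-1-low cells (38.8% to 77.6%). For synapsin it was 8.70% of piwi-1-high cells (3.26% to 18.0%) and 37.0% of piwi-1-low cells (19.4% to 57.6%), and for chat 14.5% of piwi-1-high cells (7.17% to 25.0%) and 37.0% of piwi-1-low cells (19.4% to 57.6%). All 3 shares were thus higher in piwi-1-low cells, but the intervals of the classes were separate for synapsin only. The summed level of the 3 markers ranged between 0 and 3175 CPM in piwi-1-high cells (median 4.46) and between 0 and 4793 CPM in piwi-1-low cells (median 388). In the 8 piwi-1-low X1 cells with bruli the median sum was 535 CPM and in the 19 without it 163 CPM, and in the 7 with vasa-1 it was 593 CPM against 163 CPM in the 20 without. The 2 piwi-1-low cells with vasa-2 had a summed level of 0.984 CPM or less. The part of these cells in the classes was not tested.

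Across the 96 X1 cells, the Pearson r of vasa-1 with piwi-1 was 0.74 on the log2 of CPM + 1 scale. This r was the highest among 5547 transcripts detected in at least 10 X1 cells, where the median r was 0.07, but by Spearman's rho piwi-1 (0.68) came after SmedASXL_007884 (0.72). The r of vasa-1 with vasa-2 was 0.49 and with bruli 0.42, that of vasa-2 with bruli 0.22, that of vasa-2 with piwi-1 0.50 and that of bruli with piwi-1 0.40. The gene bruli had its highest r among the stem cell genes with piwi-3, at 0.45, and vasa-1 had 0.60 with HP1-1. These values are over cells of 1 sample that share library preparation and differ in depth, and they carry no test. Within the 69 piwi-1-high X1 cells the r of vasa-1 with piwi-1 was 0.45, with vasa-2 0.41 and with bruli 0.23, and that of vasa-2 with bruli was 0.05. The r with piwi-1 in these cells was 0.35 for vasa-2 and 0.18 for bruli. In the 27 piwi-1-low X1 cells the r with piwi-1 was 0.29 for vasa-1, 0.10 for vasa-2 and -0.39 for bruli. Spearman's rho was 0.56, 0.38 and -0.26 in the same order. In these cells piwi-1 was at 4.50 CPM or less and had no read in 8 of them, so both measures were taken near the floor. In the 72 X2 cells the r of vasa-1 was 0.14 with piwi-1, -0.08 with vasa-2 and 0.02 with bruli.

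The transcripts most like each gene over X1 cells were found by the same r. For vasa-1 they were piwi-1, SmedASXL_007884 (0.71) and SmedASXL_018693 (0.68). For vasa-2 they were SmedASXL_007884 (0.54), SmedASXL_006703 (0.53) and SmedASXL_018491 (0.53), and for bruli SmedASXL_017397 (0.55), SmedASXL_017396 (0.55) and SmedASXL_013831 (0.54). The transcript SmedASXL_007884, which has no gene name in the sources used here, stood among the first 3 of both vasa genes.

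The study divided the 168 cells into 10 groups by clustering on the 1000 transcripts of highest variation. The 3 genes were not among these, ranking 3204 for vasa-1, 1039 for vasa-2 and 2418 for bruli. Groups 1 to 3 held X1 cells, Groups 5 to 10 held X2 cells, and Group 4 held 17 cells of each gate. The X1 groups went with cell numbers. All 7 cells of Group 2 were among X1 cells 1 to 24, the libraries with even counts, as were 6 of 17 in Group 3 and 11 of 55 in Group 1, and all 17 X1 cells of Group 4 were numbered 78 to 96. The part of the cell numbers in the values of these groups was not tested. In Group 4, vasa-1 was detected in 16 of 17 X1 cells and 3 of 17 X2 cells, vasa-2 in 10 X1 cells and 3 X2 cells, and bruli in 16 X1 cells and 3 X2 cells. The intervals of the gates within Group 4 did not overlap for vasa-1 and bruli (71.3% to 99.9% in X1 and 3.80% to 43.4% in X2 cells for each), but for vasa-2 they did (32.9% to 81.6% in X1 and 3.80% to 43.4% in X2 cells). The share of all transcripts separated in this way was not computed. X1 cells 73 to 96 had a median of 6505.5 transcripts per cell, against 1894 in X2 cells.

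Among the X1 groups, vasa-1 had its highest medians in Group 2 (327 CPM, detected in 7 of 7 cells) and Group 4 (317 CPM, 16 of 17 cells). Group 1 had a median of 112 CPM (40 of 55 cells) and Group 3 a median of 0.863 CPM (4 of 17 cells). The exact interval of the Group 3 share, 6.81% to 49.9%, lay below that of each other X1 group, and the other 3 overlapped with each other. How many of all transcripts set Group 3 apart in this way was not computed. For vasa-2 the medians were 24.2 CPM in Group 2 (5 of 7 cells), 26.4 CPM in Group 4 X1 cells (10 of 17), 3.13 CPM in Group 1 (26 of 55) and 0 in Group 3 (0 of 17, which allows a share of up to 17.6%). For bruli they were 183 CPM in Group 2 (4 of 7), 141 CPM in Group 4 X1 cells (16 of 17), 64.5 CPM in Group 1 (38 of 55) and 2.7 CPM in Group 3 (7 of 17). Group 3 thus held few cells with either vasa gene. Its mean bruli level was 159 CPM, against 127 CPM in Group 1, but 74.2 CPM without cells 24 and 13, which held 58.9% of the sum. Without X1 cells 1 to 24, no cell of Group 2 was left, and Group 3 had vasa-1 in 2 of 11 cells and bruli in 3 of 11 with a mean of 70.2 CPM, against 30 and 31 of 44 cells and a bruli mean of 140.3 CPM in Group 1. The 7 bruli cells of Group 3 include 6 of the 8 piwi-1-low X1 cells with bruli described above.

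The X2 cells with a gene were spread over several groups. Group 5, the group of 28 cells, held 4 cells with vasa-1, 5 with vasa-2 and 4 with bruli, and Group 6, with 14 cells, held 1, 2 and 2. Group 7, with 4 cells, held 1 cell with vasa-1 and 1 with bruli. The 9 cells of Groups 8, 9 and 10 had none of the 3 genes at 5 CPM, which allows a share of up to 33.3%. These groups are too small to tell their shares from those of Groups 5 and 6.

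**Figure D4:**
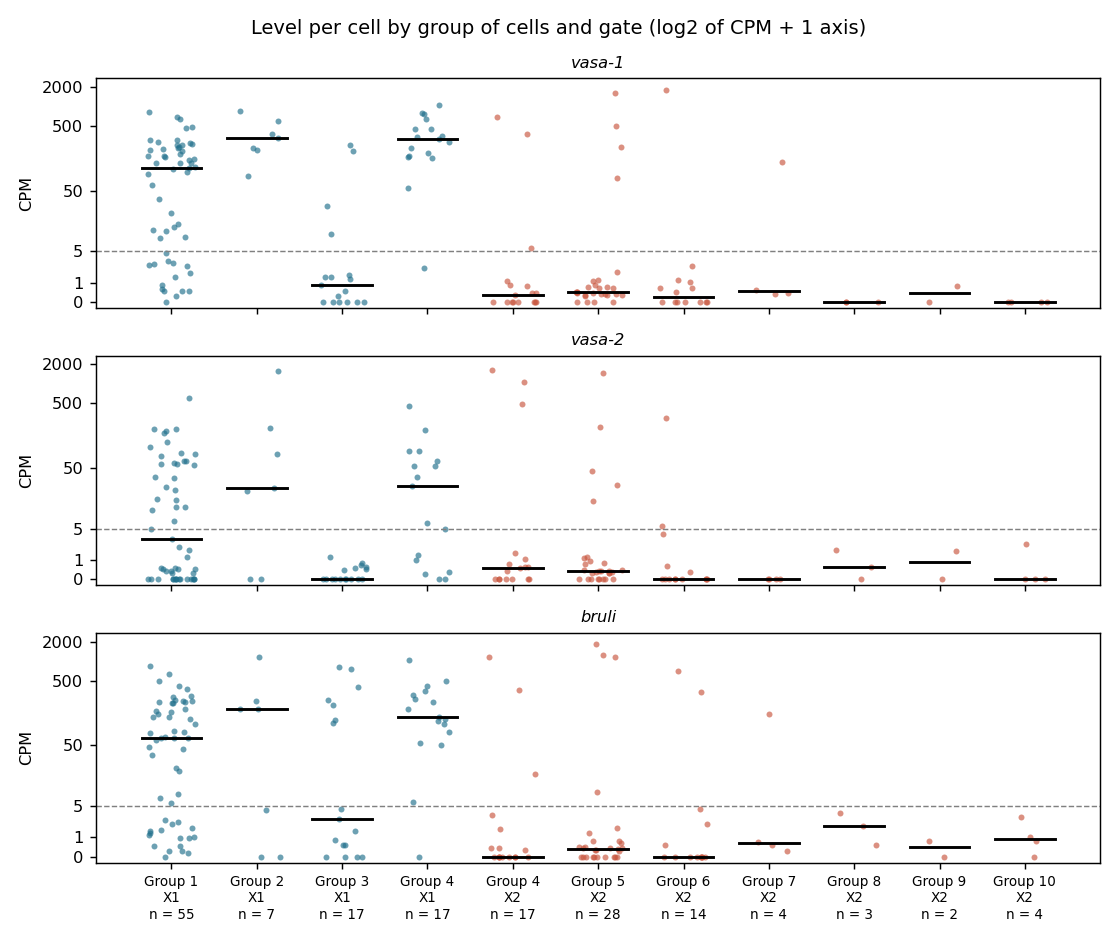
Level of vasa-1, vasa-2 and bruli (CPM, log2 of CPM + 1 axis) in each single cell, by the group of the study and gate, with X1 cells to the left and X2 cells to the right; bars are medians and the dashed line is 5 CPM. Group 3 has a vasa-1 median of 0.863 CPM and no cell with vasa-2, and Group 4 has 16 X1 cells and 3 X2 cells with vasa-1.

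Cell numbers in the sample titles gave a further view. In ranges of 24 cells, vasa-1 was detected in 19, 13, 13 and 22 X1 cells and in 0, 5 and 4 X2 cells. In the same ranges vasa-2 was detected in 11, 9, 6 and 15 X1 cells and in 5, 3 and 2 X2 cells, and bruli in 15, 15, 14 and 21 X1 cells and in 4, 5 and 1 X2 cells. For each gene the lowest X1 range was above the highest X2 range in its share, but the intervals of single ranges often overlapped, in 4 of 12 pairs of an X1 with an X2 range for vasa-1, 10 of 12 for vasa-2 and 4 of 12 for bruli. The last X1 range had the highest share of each gene, and 22 of its 24 cells were piwi-1-high, against 18, 14 and 15 in the others. Among piwi-1-high X1 cells, bruli was detected in 11 of 18, 11 of 14, 14 of 15 and 21 of 22 cells of the ranges, and vasa-1 in 17, 9, 13 and 21 of them. No label calls these ranges a batch. Without any 1 range the X1 share of vasa-1 lay between 62.5% and 75.0%, that of vasa-2 between 36.1% and 48.6% and that of bruli between 61.1% and 70.8%, while the X2 shares lay between 8.33% and 18.8%. In X2 cells 1 to 24 vasa-1 was at 1.2 CPM or less, 0 of 24 detected cells allowing a share of up to 12.5%, and without them vasa-1 was detected in 18.8% of X2 cells.

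**Figure D5:**
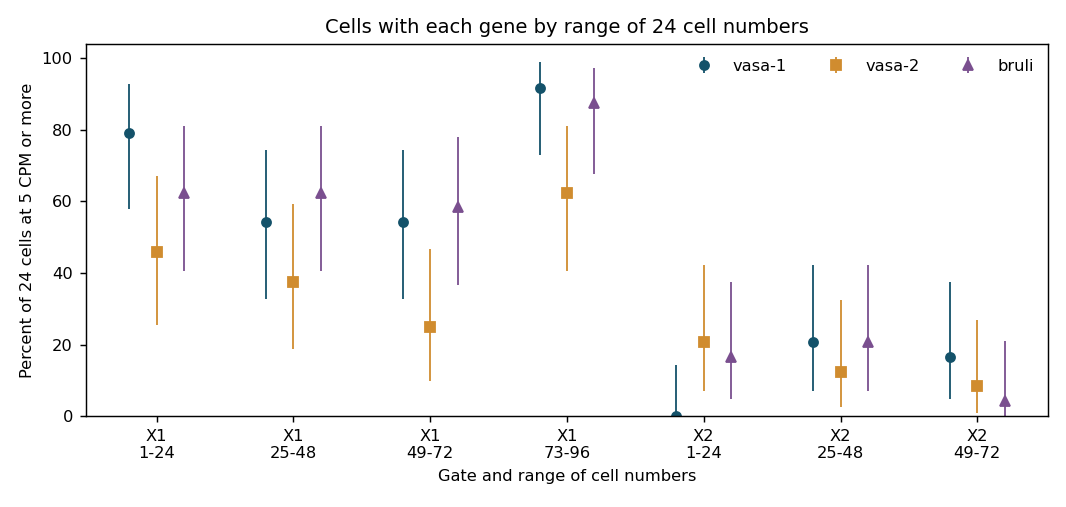
Percent of the 24 cells in each range of cell numbers (X1 ranges to the left of X2 ranges) with vasa-1, vasa-2 or bruli at 5 CPM or more; bars are exact 95% binomial intervals, for counting error only. The X1 shares lie between 25.0% and 91.7% and the X2 shares between 0 and 20.8%.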

How the data were processed

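Single cells and tubes of 200 cells were sequenced as single-end reads after SmartSeq2 amplification, without molecular identifiers. The raw counts deposited by the authors give the number of reads for each transcript of SmedASXL, a transcriptome assembly of the asexual strain, and were made with Bowtie2 2.2.4 after conversion with bcl2fastq 1.8.3 and trimming of the reads. The second table, of normalized signal, was made by the authors by dividing counts by a size factor per cell and Winsorizing, and was used here only for size factors, the ranking and the 10 groups, rebuilt by ward.D2 clustering. Levels were computed from the counts as CPM, leaving out the entry of unassigned reads (7.51% to 87.8% of the reads of a single cell).

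Genes were named by rule: the 3 genes, the stem cell genes of the study, 3 neural markers, and for each gene the 3 transcripts of highest r over X1 cells. The genes, lists and tests were chosen with earlier results of these data known, and the limit of 25 percentage points, the ranges of cell numbers, the alternatives that leave them out, those for all 3 genes together, for differences of shares, for means over detected cells and for the groups of the study, and the interval on fewer reads of X1 tube 1 were chosen after values were seen. Background counts used transcripts at 5 CPM or more in at least 10 cells of the groups compared, with 2-fold as the call. Intervals are exact (Clopper-Pearson or Poisson) at 95%, and the limit given with a count of 0 is 3 cells of the total. Only the log2 ratio of means and the ranking by r were tested on simulated data, and shares of cells and their intervals were not. Tools were Python 3.11.15 with scipy 1.17.1, numpy 2.4.6, pandas 2.3.3 and matplotlib 3.10.9, R 4.3.3, the data.table package (version 1.17.8) and edgeR 4.0.16, the last for TMM factors only. Alternatives were tried for the detection limit, thinning, scale, pseudocount, piwi-1 limit, the top cell, ranges of cell numbers, a tube left out, no filter and Spearman's rho. Sequences of the transcripts were not used here.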

Additional observations from a re-analysis of the deposited data

Results flagged for a closer look

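In small groups of cells (4 to 10 cells, 7 group and gene pairs tested), single cells stood far from the rest of their group in 5 pairs, where about 5% of such pairs are marked when nothing differs and values are close to normally distributed. In Group 2, of 7 X1 cells, 1 cell had 1571 CPM of vasa-2 and the next 209.96 CPM, and another had 1151 CPM of bruli and the next 243.9 CPM. In Group 7, of 4 X2 cells, the highest vasa-1 level was 140.7 CPM and the next 0.538 CPM, and the highest bruli level was 153.6 CPM and the next 0.683 CPM. In Group 10, of 4 X2 cells, the highest vasa-2 level was 2.5 CPM, below the limit of detection, and the other cells had no read. Levels in single cells are strongly skewed, and a group with 1 value above 0 is always marked, so these marks only describe the cells.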

How the results depend on the processing

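No paired analysis was possible because cell numbers only name cells, no test between groups was run, and nothing pairs an X1 with an X2 cell. Of 138 alternatives for shares of cells, 113 stayed within the 95% interval of the main share, and of 81 for log2 ratios of means in single cells, 57 moved by less than 1.5-fold. With 1 read in place of 5 CPM, shares were 92.7% in X1 cells and 62.5% in X2 cells for vasa-1, 69.8% and 54.2% for vasa-2, 91.7% and 58.3% for bruli, and 64.6% and 20.8% for all 3 genes. With 5 size-factor-normalized counts, X1 shares were 81.3% for vasa-1 and 80.2% for bruli. For X1 over X2 (main log2 ratios 1.3, -0.38 and 0.72 for vasa-1, vasa-2 and bruli), size factors gave 3.06, 1.7 and 2.6, the mean of log2(CPM + 1) gave 4.08, 1.4 and 3.57, and leaving out X2 cells 25 to 48 gave 2.98 for vasa-1 and 1.7 for bruli.

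For piwi-1-high over piwi-1-low X1 cells, TMM factors gave 3.87 for vasa-1 and 1.97 for bruli, the mean of log2(CPM + 1) 5.00 and 2.96, and the piwi-1 limit of 1 CPM 1.9 for vasa-2 and -0.18 for bruli. Leaving out X1 cells 1 to 24 gave 2.06 for vasa-2 and 2.3 for bruli, and leaving out the top cell of each class 3.81 for vasa-2. In X2 cells, the mean of log2(CPM + 1) gave 0.65 for vasa-1, leaving out the top cells 3.97 for vasa-1 and 1.3 for bruli, a piwi-1 limit of 1 CPM 6.18 for vasa-1 and -1.13 for vasa-2, and a limit of 50 CPM 1.2 for vasa-2 and -0.65 for bruli, so the direction of vasa-2 and bruli was not stable there. Without X1 tube 1 or 2, the log2 ratio of the tubes ranged between 0.83 and 1.3 for vasa-1, 1.01 and 1.1 for vasa-2, and 0.39 and 0.72 for bruli. With no filter, 7950 transcripts were 2-fold higher in X1 cells, against 2448 with it, and 3791 against 1114 were lower. Within X1 cells 4651 against 1380 were higher and 7273 against 1434 lower in piwi-1-high cells, and within X2 cells 6253 against 195 and 3591 against 88. By Spearman's rho, SmedASXL_018491 ranked 17 for vasa-2 and piwi-1 ranked 2 for vasa-1. The cause of these changes was not tested. X2 values rest on 9 or 10 cells with each gene, which limits every ratio in that gate.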
